A study of Mus musculus with 6 samples.

Results

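Neutrophils carry their weapons in granules that are filled in a fixed order while the cells mature in the bone marrow, and 10 genes that mark this order were followed in mouse articular cartilage. The genes were chosen by name, as 4 genes of primary granules (Elane, Mpo, Prtn3 and Ctsg), 4 of secondary granules (Ltf, Camp, Ngp and Lcn2) and 2 of late neutrophils (Retnlg and Stfa2l1), and all 10 were found among the 33971 genes of the table. The series asked how expression in articular cartilage changes with age. It holds 3 libraries from wildtype (WT) mice aged 2 months and 3 from WT mice aged 18 months, with no treatment in either group. The methods describe male mice, and the labels do not say whether a library is 1 animal or a pool. P-values below therefore measure the spread between these libraries, which may be technical.

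Primary (azurophilic) granules form in promyelocytes, which are still dividing, and hold serine proteases and myeloperoxidase. Secondary (specific) granules form in myelocytes and metamyelocytes, after the primary granule genes have been shut off, and hold lactoferrin, cathelicidin and lipocalin. Late genes are transcribed in band and segmented cells, and blood neutrophils carry little primary granule mRNA. Mature cartilage has no blood vessels, whereas the bone beneath it encloses marrow.

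The genes lie on chromosomes 2, 9, 10, 11, 14 and 16, with positions as given in the table. Prtn3 (chr10:79874476-79883174) and Elane (chr10:79886247-79888215) are neighbours on the plus strand of chromosome 10, 3073 bases apart with 0 genes between them. Camp, Ngp and Ltf lie on chromosome 9 with gaps of 570130 and 596259 bases, and Stfa2l1 (chr16:36156811-36161953) and Retnlg (chr16:48872621-48874496) share chromosome 16. For 9 of the 10 genes the position is identical to that in GENCODE M21, and for Lcn2 it is not. Windows from 250 bases before to 50 after the RefSeq start site (GRCm38.p6), found for all 10 genes, were searched on both strands for letters that the transcription factors of granulocyte development are known to bind. C/EBP letters (TTGCNNAA) stood in 4 of the 10 windows, those of Ltf, Ngp, Lcn2 and Retnlg, and in 10.8% of all 32851 promoters in the table. PU.1 letters (GAGGAA) stood in 7 windows against 28.3% of all promoters, MYB letters (AACNGNC) in 5 against 32.8%, and RUNX letters (TGTGGT) in 3 against 16.8%. No C/EBP letters stood in the windows of the 4 primary granule genes, and the window of Camp held none of the 4 motifs. The window of Prtn3 lay wholly inside the gene as placed in the table. Those of Mpo and Camp held only 47 and 89 bases upstream of the gene. A match is a description of these letters and not of a bound site.

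The sequences upstream of both the RefSeq start and the start of the gene in the table are shown for the most abundant gene of each stage, so that the stages can be compared, and for Stfa2l1, the only member called below. Capitals mark the motif letters on either strand. They are PU.1 letters at position -85 from the RefSeq start in Elane (chr10:79886062-79886246, plus strand). In Ngp (chr9:110419558-110419746, plus strand) they are MYB at -208 and C/EBP at -138. In Retnlg (chr16:48872358-48872607, plus strand) they are C/EBP at -246 and MYB at -198. In Stfa2l1 (chr16:36156561-36156810, plus strand) they are PU.1 at -224 and -86 and RUNX at -210.
Elane: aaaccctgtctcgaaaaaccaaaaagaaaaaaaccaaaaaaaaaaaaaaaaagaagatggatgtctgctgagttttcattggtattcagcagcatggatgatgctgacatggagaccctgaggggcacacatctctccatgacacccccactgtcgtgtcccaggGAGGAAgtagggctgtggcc
Ngp: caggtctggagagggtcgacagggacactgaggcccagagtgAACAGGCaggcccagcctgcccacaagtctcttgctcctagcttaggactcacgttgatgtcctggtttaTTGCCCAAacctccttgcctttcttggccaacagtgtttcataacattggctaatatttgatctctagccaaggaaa
Retnlg: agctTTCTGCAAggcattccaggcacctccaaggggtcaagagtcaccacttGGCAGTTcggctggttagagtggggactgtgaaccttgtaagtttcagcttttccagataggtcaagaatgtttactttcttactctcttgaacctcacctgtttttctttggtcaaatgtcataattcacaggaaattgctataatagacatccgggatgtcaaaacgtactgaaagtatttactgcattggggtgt
Stfa2l1: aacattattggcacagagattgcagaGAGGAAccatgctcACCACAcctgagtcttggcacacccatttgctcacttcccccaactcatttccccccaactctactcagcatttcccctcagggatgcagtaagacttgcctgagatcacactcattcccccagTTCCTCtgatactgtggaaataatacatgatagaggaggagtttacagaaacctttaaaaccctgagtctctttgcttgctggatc

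The libraries held 48171507 to 59085179 counts. The noncoding RNA Xist, which female cells transcribe, ranged from 88239 to 102417 counts at 2 months and only from 11 to 30 at 18 months. The methods describe male mice, and an age difference and a difference that goes with Xist cannot be told apart. One 2-month library, replicate 2, stood apart from the other 2-month libraries in the genes described here, and counts of called genes are given with and without it. Chondrocyte markers, which define the labelled tissue, had a summed FPKM of 9744 to 12263 in the 2-month libraries and of 307, 312 and 1534 in the 18-month libraries. All 12 of them were called lower at 18 months, against 4354 of the 20397 genes tested, and 3 of the 12 were listed at 0 in 18-month replicate 3. FPKM divides the fragments of a gene by its length and by the size of the library, so it is a level per length and is used below wherever genes are compared.

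All 10 granule genes were low in 2 of the 3 young libraries, intermediate in 2-month replicate 2 and high in every aged library. The 10 genes together took 0.00098% and 0.0029% of all counts in 2-month replicates 1 and 3, 0.210% in 2-month replicate 2, and 2.27% to 2.33% at 18 months. In FPKM they summed to 4.73, 1327 and 17.6 in 2-month replicates 1, 2 and 3, and to 14676, 15989 and 15909 in 18-month replicates 1, 2 and 3. Every 18-month library lay above every 2-month library for all 10 genes, as it did for 35.6% of all genes tested. In bulk tissue, fewer cells of a type and less RNA per cell cannot be told apart.

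**Figure D1:**
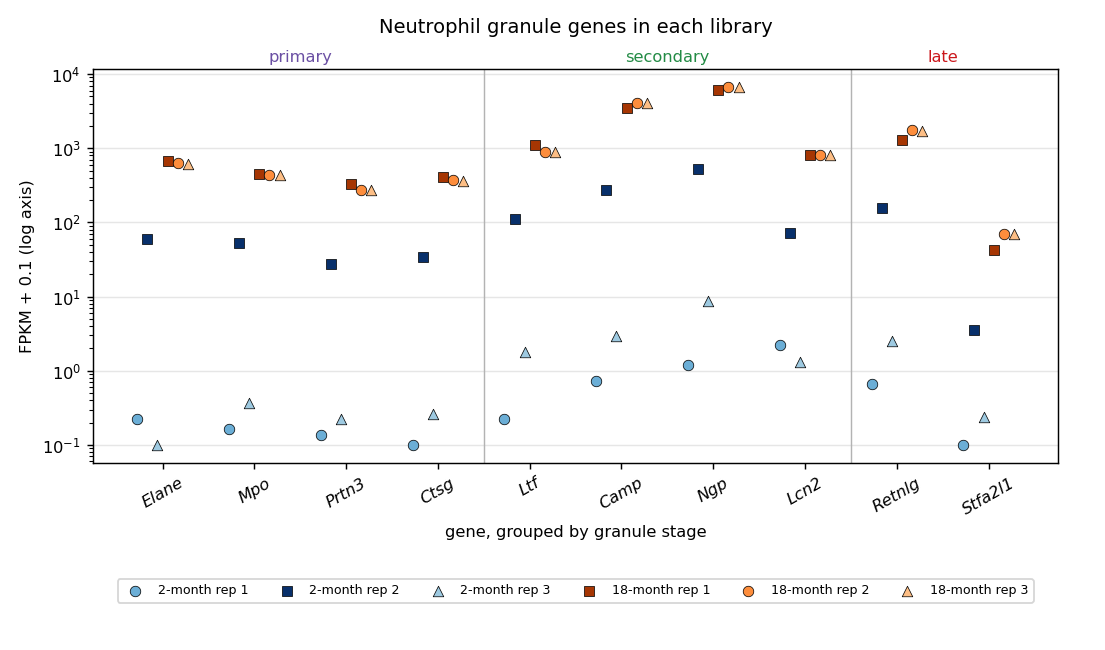
FPKM + 0.1 of the 10 genes on a log axis, 1 point per library, with the genes grouped by stage. The 18-month points lie together at the top, 2-month replicate 2 lies between, and 2-month replicates 1 and 3 lie at the bottom for all 10 genes.

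Among the primary granule genes, Mpo, the myeloperoxidase that makes hypochlorous acid, had FPKM of 0.0666, 52.7 and 0.270 in 2-month replicates 1, 2 and 3. It had 454, 437 and 435 in the 18-month libraries. The coefficient of variation of the aged libraries was 2.43%, and no young library reached their level. Mpo had a log2 fold change of 4.66 ± 2.31 (SE) that did not pass the test (edgeR quasi-likelihood test, Benjamini-Hochberg adjusted p = 0.137). Elane, neutrophil elastase, had FPKM of 0.124, 59.3 and 0 at 2 months against 666, 632 and 607 at 18 months. Its counts were 7 in 2-month replicate 1 and 0 in replicate 3, and a count of 0 allows up to 3 counts. Elane was the most abundant primary granule gene in every aged library. Its log2 fold change was 5.01 ± 2.55 (edgeR, Benjamini-Hochberg adjusted p = 0.146).

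Ctsg, the granule protease cathepsin G, had FPKM of 0, 34.5 and 0.158 at 2 months and of 404, 377 and 360 at 18 months. It rested on 0 and 10 counts in 2-month replicates 1 and 3, and its log2 fold change was 5.05 ± 2.38 (edgeR, Benjamini-Hochberg adjusted p = 0.122). Prtn3, proteinase 3, had FPKM of 0.0346, 27.6 and 0.126 at 2 months and of 331, 272 and 272 at 18 months. For both genes 2-month replicate 2 was the only young library with more than a trace. Prtn3 had a log2 fold change of 4.99 ± 2.25 (edgeR, Benjamini-Hochberg adjusted p = 0.111), so that edgeR called 0 of the 4 primary granule genes, with 0 at an unadjusted p under 0.05, against 14.9% of all genes tested, while DESeq2 called 2, against 17.0%.

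Among the primary, secondary and late genes chosen by name, the secondary genes Ngp and Camp held the highest levels at 18 months. The secondary genes Ltf and Lcn2, with mean FPKM of 955 and 810 at 18 months, lay below the late gene Retnlg, with 1587. Ngp, neutrophilic granule protein, had FPKM of 1.08, 532 and 8.71 at 2 months and of 6072, 6645 and 6657 at 18 months. Camp, the cathelicidin antimicrobial peptide, had 0.623, 277 and 2.86 at 2 months and 3505, 4102 and 4108 at 18 months. Both were lowest in replicate 1 within each age. The log2 fold change was 5.17 ± 2.17 for Ngp and 5.40 ± 2.23 for Camp (edgeR, Benjamini-Hochberg adjusted p = 0.0920 and 0.0884).

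Ltf, the iron-binding lactoferrin, had FPKM of 0.121, 113 and 1.69 at 2 months and of 1091, 890 and 883 at 18 months. Unlike Ngp and Camp it was highest in 18-month replicate 1, and its log2 fold change was 4.65 ± 2.21 (edgeR, Benjamini-Hochberg adjusted p = 0.124). Lcn2, lipocalin 2, which withholds iron by binding bacterial siderophores and is also made by cells other than neutrophils, had 2.11, 72.7 and 1.22 at 2 months and 812, 819 and 799 at 18 months. It was the steadiest gene of the 10 at 18 months, with a coefficient of variation of 1.23%. Its log2 fold change of 5.01 ± 1.69 lay at the edge of the call (edgeR, Benjamini-Hochberg adjusted p = 0.0506), and edgeR called 0 of the 4 secondary granule genes, with 1 at an unadjusted p under 0.05, against 14.9% of all genes tested, while DESeq2 called 4, against 17.0%.

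Of the late genes, Retnlg, a resistin-like protein of neutrophils, had FPKM of 0.567, 156 and 2.42 at 2 months and of 1297, 1746 and 1719 at 18 months. Its log2 fold change was 4.92 ± 2.03 (edgeR, Benjamini-Hochberg adjusted p = 0.0883). Stfa2l1, a stefin A-like inhibitor of cysteine proteases, had FPKM of 0, 3.40 and 0.139 at 2 months and of 42.6, 69.1 and 69.1 at 18 months. Both late genes were lowest in replicate 1 among the aged libraries. Stfa2l1 rose with a log2 fold change of 5.64 ± 1.55 (edgeR, Benjamini-Hochberg adjusted p = 0.0269). It shared 24.6% of its 50-base words with other genes, chiefly Stfa2 and Gm49652, so its counts may be divided among copies. For Mpo that share was 0.228%, and for the other 8 genes it was 0.

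In all, 1 of the 10 genes was called higher, against 14.9% of the 20397 genes tested. This gene, Stfa2l1, had 0, 84 and 4 counts at 2 months and passed the filter on counts only through the aged libraries. The same holds for Elane, Prtn3 and Ctsg. A call needed an adjusted p under 0.05 and a log2 fold change over 1. The median log2 fold change was 5.01 over the 10 genes and -0.02 over all genes tested. By stage the medians were 5.00 for primary, 5.09 for secondary and 5.28 for late genes, and the gaps between these medians were smaller than the SE of every gene. With 3 libraries against 3, an exact permutation test of 1 gene cannot go below p = 0.10.

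The number of genes called changed with the libraries used and with the test. Without 2-month replicate 2, all 10 genes were called, against 23.3% of all genes tested, with log2 fold changes of 8.81 (Lcn2) to 13.13 (Elane) and adjusted p from 5.49e-05 to 0.00203 (edgeR, Benjamini-Hochberg). The 4 primary granule genes then had log2 fold changes of 11.23 to 13.13, above those of the 4 secondary (8.81 to 11.02) and the 2 late genes (9.29 and 9.93). These estimates rest on young libraries with at most 52 counts of a primary granule gene. Elane, Prtn3, Ctsg and Stfa2l1 passed the filter on counts of this fit only through the aged libraries. Leaving out any one of the other 5 libraries left 1 gene called, Stfa2l1, without 2-month replicate 1 and 0 genes called in the other cases, with 1 or 2 genes at an unadjusted p under 0.05. In these 5 fits, 2095 of 21365 to 2672 of 21407 genes tested were called higher. DESeq2 on all 6 libraries called 8 of the 10 genes, all but Elane and Ctsg, against 17.0% of all genes. Limma on log2(FPKM + 0.1) called all 10 against 20.3%.

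**Figure D2:**
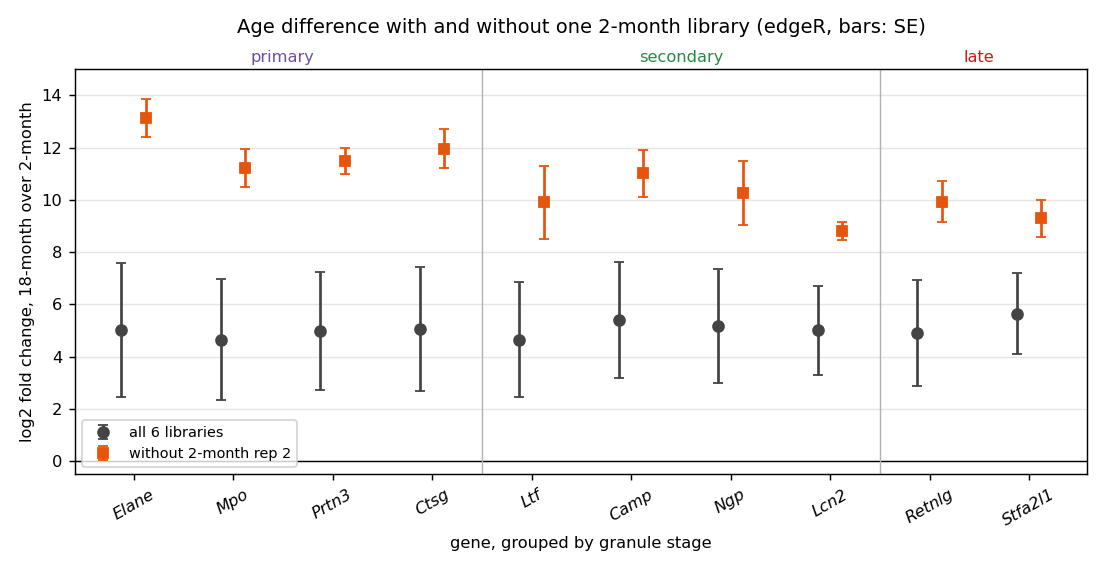
Log2 fold change of 18-month over 2-month libraries in edgeR for each gene, with bars of 1 SE, using all 6 libraries (circles) and without 2-month replicate 2 (squares). With all libraries the 10 estimates run from 4.65 to 5.64, and without 2-month replicate 2 from 8.81 to 13.13 with shorter bars.

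The 18-month libraries ordered the 10 genes in the same way, from Ngp, Camp, Retnlg, Ltf, Lcn2, Elane, Mpo, Ctsg and Prtn3 to Stfa2l1. The ranges of the 3 aged libraries did not overlap in any of the 9 pairs of neighbours in this order. The closest pairs were Mpo over Ctsg, with mean FPKM of 442 ± 10.8 (SD, n = 3) and 381 ± 22.4, and Ltf over Lcn2, with 955 ± 118 and 810.0 ± 9.998. The most abundant gene exceeded the least abundant one by 2.18 times among primary, 7.97 times among secondary and 26.3 times among late genes. 2-month replicate 2 showed this same order. In 2-month replicate 3 Ngp, Camp, Retnlg, Ltf and Lcn2 again held the first 5 places, while in 2-month replicate 1 Lcn2 came first.

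At 18 months the share of secondary genes in the summed FPKM of the 10 genes was nearly constant, and the shares of primary and late genes varied more. Primary genes made up 12.7%, 10.7% and 10.5% in replicates 1, 2 and 3, secondary genes 78.2%, 77.9% and 78.2%, and late genes 9.13%, 11.4% and 11.2%. Ngp and Camp alone made up 66.7% ± 1.28 (SD, n = 3). In 2-month replicate 2 the shares were 13.1% primary, 74.9% secondary and 12.0% late. This young library, with 108529 counts of the 10 genes, thus held primary granule transcripts at a share above that of every aged library.

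Primary granule genes had a smaller share in the other young libraries. They made up 4.77% of the summed FPKM in 2-month replicate 1 and 3.15% in replicate 3. As counts these were 24 of 473, or 5.07% (95% Wilson interval 3.43 to 7.44), and 76 of 1394, or 5.45% (4.38 to 6.77). Both intervals lay below the 17.4% of 2-month replicate 2 (17.1 to 17.6) and the 14.4% to 16.0% of the aged libraries, and they cover counting error only. Lcn2 weighed on this share in 2-month replicate 1, since it made up 53.6% of the secondary signal there, 8.44% in 2-month replicate 3 and 6.42% to 7.32% in the other libraries. Without Lcn2 the primary share of counts was 14.5% (9.97 to 20.7) in 2-month replicate 1, whose interval includes the values of the aged libraries, and 6.28% (5.04 to 7.78) in replicate 3, whose interval does not.

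**Figure D3:**
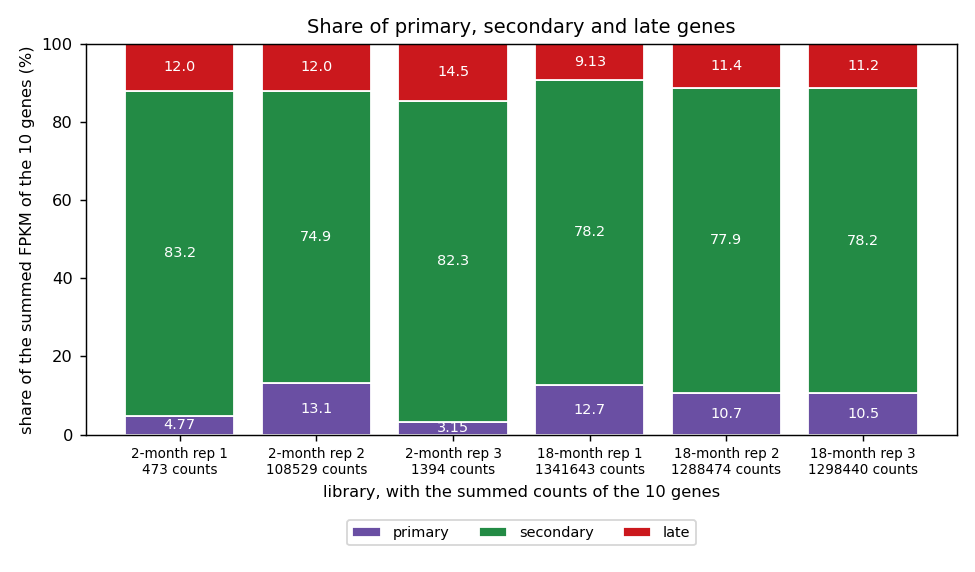
Stacked bars of the share of primary, secondary and late genes in the summed FPKM of the 10 genes, 1 bar per library, from 0 to 100%, with the summed counts of the 10 genes under each bar. Primary genes hold 10.5% to 13.1% in the 18-month libraries and 2-month replicate 2 and 3.15% and 4.77% in the 2 young libraries with few counts.

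As log2 ratios of summed FPKM, secondary over primary was 2.79 ± 0.144 (SD, n = 3) at 18 months and 4.12, 2.51 and 4.71 in 2-month replicates 1, 2 and 3. Late over secondary was -2.89 ± 0.179 at 18 months and -2.80, -2.64 and -2.50 in the same 2-month libraries. Late over secondary thus ran from -3.10 to -2.50 over the 6 libraries, and without Lcn2 from -2.99 in 18-month replicate 1 to -1.69 in 2-month replicate 1. Late over primary was -0.10 ± 0.322 at 18 months and 1.33, -0.13 and 2.21 at 2 months. Its sign at 18 months rested on replicate 1, at -0.47, against 0.08 and 0.10 in replicates 2 and 3.

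Lcn2 left the other secondary genes in 2-month replicate 1. In FPKM it stood at 1.95 times Ngp in 2-month replicate 1 and at 0.120 to 0.140 times Ngp in the other 5 libraries. It rested on 308 counts in 2-month replicate 1 (95% Poisson interval 275 to 344) and 183 in replicate 3 (157 to 212), whereas Ngp had 73 (57.2 to 91.8) and 598 (551 to 648). Lcn2 was thus the only member with more counts in replicate 1 than in replicate 3 besides Elane, at 7 and 0. Markers of stromal, bone and fat cells that may also make Lcn2, 8 genes led by Ibsp and Col1a1, summed to FPKM of 1515 and 1640 in these 2 libraries, with none listed at 0, and their part in the Lcn2 level was not tested.

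Relative to the aged mean, 2-month replicate 2 stood at 9.07% to 11.9% for the 4 primary genes, 7.08% to 11.8% for the 4 secondary genes, and 9.82% and 5.65% for Retnlg and Stfa2l1. Mpo (11.9%) and Ltf (11.8%) were highest and Stfa2l1 and Camp (7.08%) lowest, so the spread within stages was as wide as that between them. The same library stood at 20.2% of the aged mean for 11 erythroid genes, 27.3% for 10 proliferation genes, 33.0% for 12 monocyte and macrophage genes and 140% for 10 B lymphocyte genes. Eosinophil genes (6.95%, 9 genes) and basophil and mast cell genes (7.01%, 10 genes) stood near the granule genes. It also held Col1a1, a bone and fibroblast collagen, at 1420 FPKM against 29.3 and 60.0 in the other young libraries. The part of these other cells in the granule genes was not tested.

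Among the 10 genes, 18-month replicate 1 differed from the other aged libraries in the primary and late genes. The wider primary and late lists given below were split. In 18-month replicate 1 all 4 primary granule genes lay above both other aged libraries, at 104% (Mpo), 108% (Elane), 110% (Ctsg) and 122% (Prtn3) of their mean. Both late genes lay below both, Retnlg at 74.9% and Stfa2l1 at 61.7%. Secondary genes were split, with Ltf at 123%, Lcn2 at 100.4%, Ngp at 91.3% and Camp at 85.4%. The 95% counting intervals were narrow, the widest being that of Stfa2l1 (57.8% to 65.8%), and that of Lcn2 alone included 100%. This is 1 library against 2, so no test of the tilt was made. Replicates 2 and 3 were nearer to one another than to replicate 1 over all genes, with a median ratio of the chi-square to its expectation of 6.25 against 24.15 and 24.21.

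**Figure D4:**
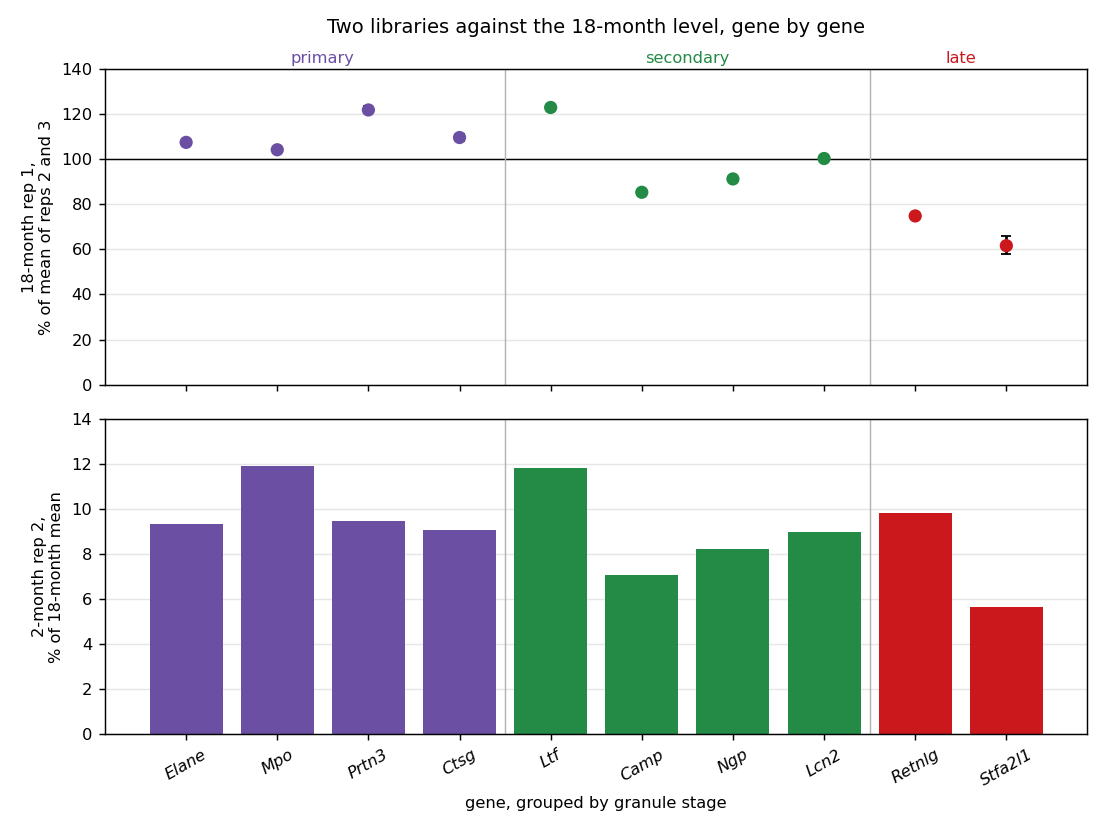
Upper plot, FPKM in 18-month replicate 1 as percent of the mean of replicates 2 and 3, with 95% counting intervals and a line at 100%. Lower plot, FPKM in 2-month replicate 2 as percent of the 18-month mean. Colours mark the stages. In the upper plot primary genes lie at 104% to 122% and late genes at 61.7% and 74.9%, and in the lower plot all genes lie between 5.65% and 11.9% without separation by stage.

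Other cells also differed between these aged libraries. In 18-month replicate 1 the 12 chondrocyte genes summed to 1534 FPKM against 312 and 307 in replicates 2 and 3, the 11 erythroid genes to 30447 against 40240 and 39878, and the 9 eosinophil genes to 2306 against 1930 and 1921. Proliferation genes summed to 637, 664 and 647, with Mki67 at 97.3, 82.2 and 80.3 FPKM and Pcna at 141, 154 and 149. Their part in the tilt among granule genes was not tested.

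Further genes of the same stages were followed in lists. Of 8 other primary granule genes, 7 were tested and 2 were called higher, against 14.9% of all genes tested. They were Srgn (log2 fold change 2.97 ± 0.164, adjusted p = 0.000706) and Serpinb1a (5.15 ± 1.63, adjusted p = 0.0419), both by edgeR with Benjamini-Hochberg adjustment. Srgn, the proteoglycan core on which granule proteins are packed and which many cells make, had 30.1, 32.1 and 23.4 FPKM at 2 months and 215, 247 and 243 at 18 months. Fcnb, ficolin B, was the most abundant of this list, with FPKM of 0, 20.5 and 0.134 at 2 months and 273, 253 and 252 at 18 months (log2 fold change 5.25 ± 2.31, edgeR Benjamini-Hochberg adjusted p = 0.104). Cd63 and Bpi did not rise. Cd63 had 82.0 to 83.1 FPKM at 18 months, below every young library, and was not called (log2 fold change -0.30 ± 0.120, edgeR Benjamini-Hochberg adjusted p = 0.0818). Bpi, which was not tested, had 0, 59 and 8 counts at 2 months and 0 in every aged library. In 18-month replicate 1, 4 of the 7 genes of this list with at least 1 FPKM lay above both other aged libraries and 3 below both.

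Of 13 other genes of secondary and tertiary granules, 4 were called higher, against 14.9% of all genes tested, and 0 lower. Lyz2, lysozyme, the most abundant, also made by macrophages, had FPKM of 9.03, 528 and 62.8 at 2 months and 4843, 3562 and 3556 at 18 months (log2 fold change 4.31 ± 1.42, edgeR Benjamini-Hochberg adjusted p = 0.0470). Chil3, a chitinase-like lectin, had 1840 to 2239 FPKM at 18 months, and Hp, haptoglobin, 457 to 568, and neither was called. Mmp9, gelatinase B, which osteoclasts also make, left the pattern, with 1.08, 472 and 51.0 FPKM at 2 months and 262, 265 and 267 at 18 months. It was named after its values were seen. Its level in 2-month replicate 2 was 178% of the aged mean, whereas the list's median was 13.0%.

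Of 14 other late neutrophil genes, 3 were called higher, against 14.9% of all genes tested, and 0 lower. The calcium-binding alarmins S100a9 and S100a8 were the most abundant, at 17751 to 19368 and 10127 to 12173 FPKM in the aged libraries and 1.83 to 1522 and 2.35 to 833 in the young ones. Neither S100 gene passed the test, with log2 fold changes of 5.19 ± 2.25 and 5.34 ± 2.12 (edgeR, Benjamini-Hochberg adjusted p = 0.1003 and 0.0795). Ifitm6, an interferon-induced transmembrane family member and the third by level, had FPKM of 0, 33.9 and 1.14 at 2 months and 428, 550.2 and 547 at 18 months (log2 fold change 5.45 ± 2.16, edgeR Benjamini-Hochberg adjusted p = 0.0790). In 18-month replicate 1, 8 of the 14 genes lay below both other aged libraries and 6 above both, so the tilt seen for Retnlg and Stfa2l1 was not shared by all late genes.

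The stefin A cluster holds the relatives of Stfa2l1. Of its 9 genes 7 were tested and all 7 were called higher, against 14.9% of all genes, with Cstdc4, Stfa1 and Stfa3 the most abundant. Stfa2, Csta2, Csta3 and Cstdc5 had 0 counts in every 2-month library. They entered the test only through the aged libraries and could only be called higher. Stfa1, Stfa3 and Cstdc4 had 11, 13 and 70 counts in 2-month replicate 2 and at most 4 in the other young libraries. These too passed the filter on counts only through the aged libraries. The cluster summed to 0.103, 1.42 and 0.0690 FPKM at 2 months and to 17.5, 44.9 and 41.4 at 18 months. In 18-month replicate 1, 5 of the 6 genes with at least 1 FPKM lay below both other aged libraries, among them Stfa1 at 30.3% (95% counting interval 25.5 to 36.0) and Cstdc4 at 47.1% (43.7 to 50.8) of their mean. Sequence shared between these copies makes each single value uncertain.

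Among 11 transcription factors of granulocyte development, 4 were called higher and 1 lower. Of the 20397 genes tested, 14.9% were called higher and 4354 lower. Spi1, which encodes PU.1, had the highest mean level, with FPKM of 0.0850, 13.7 and 1.64 at 2 months and 66.2, 60.6 and 62.2 at 18 months, and was not called (edgeR, Benjamini-Hochberg adjusted p = 0.0902). Cebpe, which drives secondary granule genes, had 0, 8.04 and 0.303 against 68.9, 52.4 and 53.0 and was not called (adjusted p = 0.0869). Cebpa, which acts at the progenitor stage, rose from 1.55, 5.15 and 1.65 to 23.0, 25.1 and 22.8 FPKM (log2 fold change 3.04 ± 0.486, edgeR Benjamini-Hochberg adjusted p = 0.00465). Lef1, which lymphocytes also use, fell from 2.50, 2.91 and 2.66 to 0.369, 0.268 and 0.234 FPKM (log2 fold change -3.29 ± 0.202, edgeR Benjamini-Hochberg adjusted p = 0.000749). In 18-month replicate 1, 8 of the 10 factors with at least 1 FPKM lay above both other aged libraries and 0 below both. Cebpe was among the 8, at 131% of the mean of the other aged libraries.

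Over these 5 lists, 52 of 55 genes were tested, 20 were called higher, against 14.9% of all genes tested, and 1 lower, and the median log2 fold change was 4.52. The 20 include Stfa2, Csta2, Csta3 and Cstdc5, which could only be called higher. They also include Stfa1, Stfa3 and Cstdc4, which passed the filter on counts only through the aged libraries. Without 2-month replicate 2, 46 were called higher, against 23.3% of all genes. By list these were 6 of the other primary granule genes, 12 of those of secondary and tertiary granules, 14 late neutrophil genes, 7 stefins and 7 transcription factors.

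**Figure D5:**
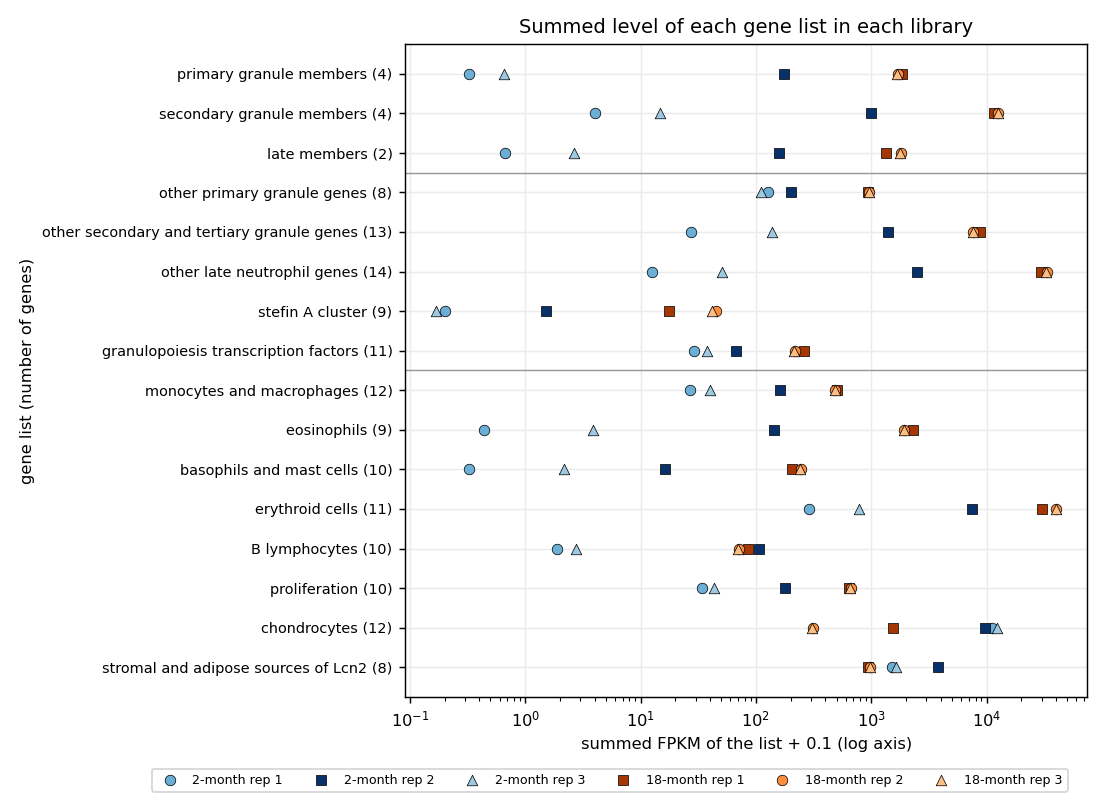
Summed FPKM + 0.1 of each gene list on a log axis, 1 point per library, with the number of genes in parentheses. Lines divide the 10 granule genes, the 5 other neutrophil lists and the 8 lists for other cells. Chondrocyte genes lie higher in the 2-month than in the 18-month libraries, and B lymphocyte genes of 2-month replicate 2 lie above the 18-month points.

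The lists for other cells are set beside the same shares of all genes, 14.9% called higher with all libraries and 23.3% without 2-month replicate 2. Erythroid genes were above every young library for 11 of 11 genes, against 35.6% of all genes tested. Of these 11 genes 3 were called higher, or 11 without 2-month replicate 2. Their sums were 288, 7455 and 790 FPKM in 2-month replicates 1, 2 and 3 and 30447 to 40240 at 18 months, led by the globin genes Hbb-bs and Hbb-bt. Eosinophil genes summed to 0.343, 143 and 3.79 at 2 months and to 1921 to 2306 at 18 months, led by Prg2, the major basic protein, and Ear1, with 3 of 9 called, or 9 without 2-month replicate 2. Basophil and mast cell genes, led by Prss34 and Mcpt8, summed to 0.224, 16.2 and 2.07 and to 207 to 246, with 3 of 7 tested called, or 6 without it. The mast cell proteases of this list, Mcpt4, Tpsab1, Tpsb2 and Cma1, did not follow. Mcpt4 had 53 counts in 2-month replicate 3 and 7, 0 and 4 in the aged libraries. Tpsab1 and Tpsb2 had at most 3 and 7 counts in any library. Cma1 had a log2 fold change of 0.23 ± 0.976 (edgeR, Benjamini-Hochberg adjusted p = 0.858).

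Monocyte and macrophage genes, led by Ly6c2 and C1qa, summed to 26.5, 162 and 39.7 at 2 months and to 481 to 509 at 18 months, with 1 of 12 called by edgeR, 4 by DESeq2 and 10 by edgeR without 2-month replicate 2. Of the 10 proliferation genes, led by Pcna and Mki67, 8 were called higher, or 10 without it. B lymphocyte genes, led by Cd79b and Cd79a, summed to 1.78, 106 and 2.64 at 2 months and to 70.2 to 85.7 at 18 months, and 0 of 10 were called by edgeR, with 0 at an unadjusted p under 0.05, and 0 of the 2 to which DESeq2 gave an adjusted p. Without 2-month replicate 2, 9 of the 10 B lymphocyte genes were called higher, and their median log2 fold change was 5.37 in place of 0.60. Chondrocyte genes, led by Prg4 and Col2a1, went the other way, with all 12 called lower with or without 2-month replicate 2. Over all genes, 4354 of the 20397 tested were called lower, and 4576 of 21489 without 2-month replicate 2. In the list of stromal, bone and fat genes, led by Ibsp and Col1a1, edgeR called 0 of 8 higher and 1 lower, with 2 at an unadjusted p under 0.05, and DESeq2 called 3 higher and 1 lower. Without 2-month replicate 2, edgeR called 6 of these 8 higher and 1 lower.

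Profiles across the 6 libraries were compared with that of each stage, by the root mean square difference of centred log2(FPKM + 0.1) over 14008 genes with a mean of at least 1 FPKM. The nearest genes to the primary profile were Ighj4 (0.26), Igkj1 (0.33), Fcnb (0.35), Ms4a3 (0.45) and Igkc (0.62). Those nearest to the secondary profile were Fcnb (0.21), Chil3 (0.29), S100a8 (0.32), Mmp8 (0.33) and Cd177 (0.33). For the late profile they were Ly6g (0.30), Prss34 (0.34), Trem3 (0.34), Cd177 (0.35) and Ccl6 (0.35). Among the 10 genes themselves, the late gene Retnlg (0.17) and the primary genes Mpo (0.32), Prtn3 (0.35) and Ctsg (0.39) lay nearer to the secondary profile than the 4 secondary genes did, at 0.40 (Ngp) to 1.04 (Lcn2). All genes named for likeness, with Igkc up to 1.13 FPKM and S100a8 up to 15.5, had their lowest values in 2-month replicates 1 and 3. This followed from the choice, since the stage profiles are lowest there. For genes at 0 in both of these libraries, such as Ighj4, the added 0.1 sets the log2 value.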

How the data were processed

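Poly(A)-selected RNA of articular cartilage was sequenced from strand-marked libraries whose adapters carried molecular identifiers. The submitters' processing notes name cutadapt 1.9, HISAT2 2.0.4, UMI-tools, StringTie 1.3.4d, DESeq2 and edgeR. Which of them made the counts, and the genome build, are not given in the sources used here. Of the 33971 genes, 99.69% were found in GENCODE M21, 87.49% of these at identical positions. The table deposited by the authors holds raw counts as whole numbers and, beside them, FPKM, which they scaled by transcript length and by library.

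All 6 libraries, of 48171507 to 59085179 counts, were used, and 0 columns were left out. Tests ran on the counts in edgeR 4.0.16 under R 4.3.3 (TMM, filterByExpr, quasi-likelihood test, no replicate block), with Benjamini-Hochberg adjustment over all genes tested. The SE of a log2 fold change is its size over the root of F. The code was tested on simulated data. DESeq2 1.42.0, limma 3.58.1 with trend, other scalings, no filter, a replicate block and leaving out each library were alternatives. DESeq2 left adjusted p empty for some genes, and these were not counted. Stage levels were summed FPKM.

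The 10 genes, the lists and the tests were chosen with earlier results of these data known. Besides the 10, the 3 genes of each neutrophil list and 2 of each list for other cells with the highest mean FPKM were named, with any gene called against its list and the 5 genes nearest in profile to each stage. Cd63, Bpi, the mast cell proteases and the stefins with 0 counts at 2 months were named after their values were seen. In the stefin list, 3 symbols were matched by Ensembl identifier and 1 repeat was counted once. Intervals cover counting error only.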

Additional observations from a re-analysis of the deposited data

How the results depend on the processing

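The 10 log2 fold changes were above 0 under all 13 alternatives for the age comparison, from 4.07 to 13.13. The number of granule genes called was 1 in the test as reported, 2 with median-of-ratios size factors, 8 with DESeq2, 10 with limma at either pseudocount and 2 with the replicate block, and it ran from 0 to 10 when libraries were left out in turn. Leaving out 2-month replicate 2 gave the 10, and leaving out 2-month replicate 3 or any 18-month library gave 0. Total counts alone and no filter left 1. For the 5 other neutrophil lists, 20 genes were called higher, 39 with DESeq2, 47 with limma at a pseudocount of 0.1 and 45 at 1, and 13 to 46 with a library left out. Over all genes, 3047 of 20397 were called higher and 4354 lower. Of the same 20397, 3261 were called higher with median-of-ratios size factors, 3128 with total counts alone and 2523 with the replicate block. With no filter 2783 of 33971 were called higher, and with DESeq2 4414 of 25941. Limma called 4365 of 21539 higher at a pseudocount of 0.1 and 3041 at 1. With a library left out the number ran from 2095 of 21365 to 5007 of 21489. Without 2-month replicate 2, 5007 were called higher, and with limma at a pseudocount of 1, 2217 were called lower. The cause of these differences was not tested. Same-numbered libraries did not deviate together (correlations of 0.03, 0.04 and -0.02), and the labels do not say whether the numbers pair the libraries. The log2 ratio of secondary over primary at 18 months was 2.79, and 2.32 as a mean of log2 values and 2.42 from counts. Late over primary was -0.10, and -0.46 as a mean of log2 values and -1.66 from counts, and it reversed to 0.087 without 18-month replicate 1, with a range of -0.20 to 0.087 over libraries left out. Late over secondary was -2.89, and -4.09 from counts. Counts are not scaled by length, so these ratios move by construction. In 2-month replicates 1 and 3, primary granule genes rested on 24 and 76 counts, which limits their shares.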
